A study of Mus musculus with 6 samples.

Results

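Cadherins are membrane proteins that hold cells together through extracellular repeats that bind calcium. The genes described here are those whose symbols are CDH with a number, begin with PCDH, or are FAT1 to FAT4, DCHS1, DCHS2 or CELSR1 to CELSR3, and whose level was above 0 in any tumour. Of 23284 symbols in the expression table, 102 matched by name and 95 were above 0 in at least 1 tumour. RNA was sequenced from 6 xenografts of STS26T cells, placed under the skin of athymic nude mice (hosts without a normal thymus). STS26T is a line from a human malignant tumour of the peripheral nerve sheath. In the anti-ENG group (3 tumours) the mice received TRC105 and M1043, antibodies against human and mouse endoglin, and in the IgG control group (3 tumours) they received the matching IgG. Both were given at 10 mg/kg into the peritoneum 2 times a week for 3 weeks. All tumours thus share 1 cell line and 1 host type, and the age and sex of the mice are not used here. Levels are FPKM, fragments scaled to transcript length and to the sequencing depth of the tumour, so genes can be compared per length. How depth was scaled between tumours is not given.

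Classical cadherins (types I and II) bind the same kind of molecule on the next cell and anchor to actin through beta-catenin and p120-catenin on their cytoplasmic tails. E-cadherin (CDH1) is typical of epithelium, N-cadherin (CDH2) and cadherin-11 (CDH11) of mesenchymal and neural crest derived cells, and VE-cadherin (CDH5) of endothelium. The alpha, beta and gamma protocadherins are encoded in clusters in which each variable exon has its own promoter, and in neurons single cells choose few of these promoters, which gives cells distinct surface identities. FAT and Dachsous (DCHS) proteins are giant cadherins that bind each other, and CELSR proteins carry signals of planar cell polarity.

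Few of these genes were well expressed. An average of 1 FPKM or more across the 6 tumours, the level needed to enter the test, was reached by 17 of the 95 genes, against 12586 of 18915 genes above 0 in the whole table. At a mean of at least 5 FPKM there were 7 genes, PCDHGC3, CDH2, CDH11, PCDHGA12, FAT1, PCDHGA11 and CDH24. Another 47 genes had a mean from 0.1 to under 1 FPKM and 31 lay under 0.1 FPKM. Of those 31, PCDHA8, PCDHA13 and PCDHAC1 had no value of 0.001 FPKM or more in any tumour, so their place among the 95 rests on vanishingly small estimates. The next lowest member value was 0.0112 FPKM. Just inside the 1 FPKM limit were PCDHB9 (1.01) and PCDHB14 (1.02), and just outside it CDH12 (0.980) and FAT4 (0.969). The 7 symbols listed at 0 in every tumour were CDH8, CDH16, CDH19, CDH20, CDH22, PCDH20 and PCDHB1. CDH19 is a cadherin known from Schwann cell precursors.

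**Figure D1:**
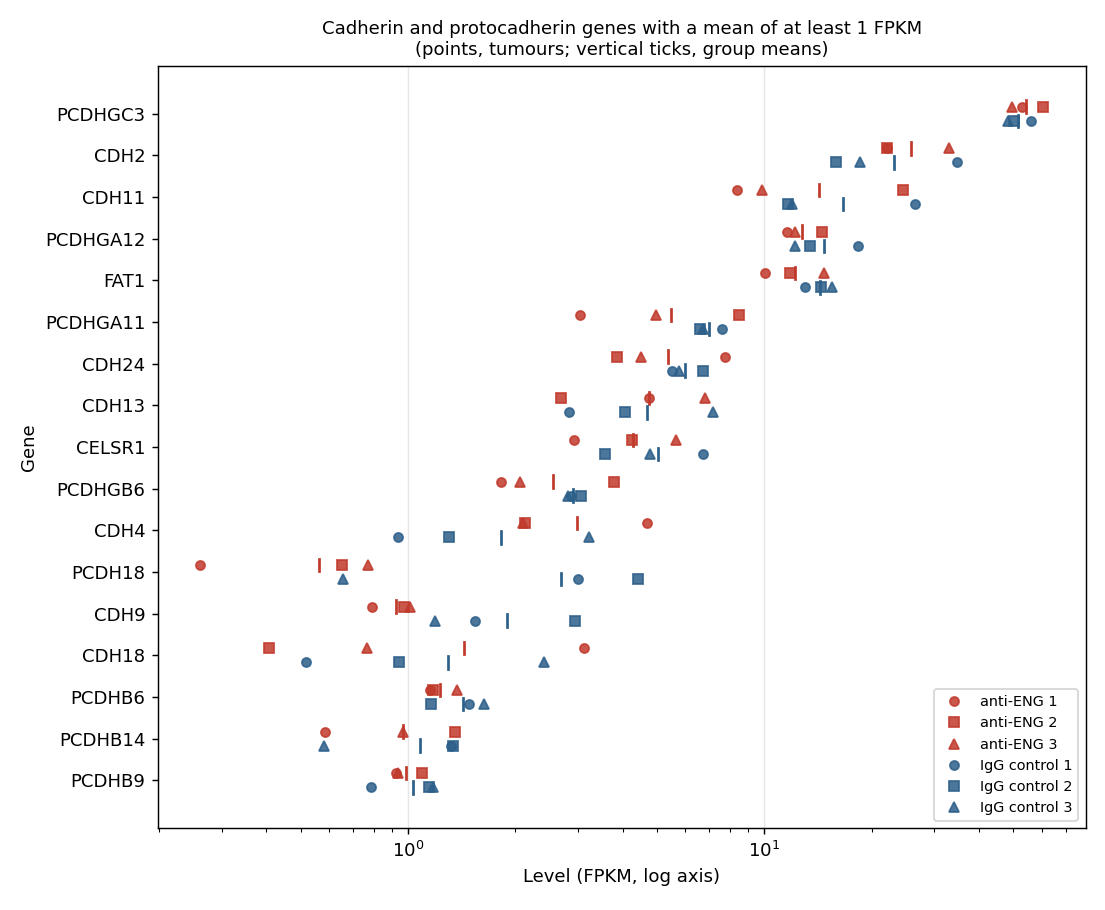
Level of each of the 17 genes that average 1 FPKM or more, in FPKM on a log axis, with 1 point per tumour (red, anti-ENG, above; blue, IgG control, below) and a vertical tick at each group mean. PCDHGC3 lies highest, between 48.2 and 60.6 FPKM, and in CDH9 alone the groups do not overlap.

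Markers of the labelled origin were mostly low. Of 9 Schwann and neural crest markers, 3 reached a mean of 1 FPKM, with PMP22 at 42.3 to 45.4 FPKM in the anti-ENG tumours and 39.7 to 49.6 FPKM in the IgG tumours. S100B was at most 0.0849 FPKM in the anti-ENG tumours and at most 0.104 FPKM in the IgG tumours, and SOX10 was at most 0.0724 and 0.188 FPKM in the anti-ENG and IgG tumours. Endoglin itself (ENG) had 15.5, 29.5 and 26.7 FPKM in anti-ENG 1, 2 and 3, and 41.0, 23.9 and 22.1 FPKM in IgG control 1, 2 and 3. The antibodies bind the protein, so ENG RNA is no check of the labels. In bulk tumour RNA, fewer cells of a type and less RNA per cell cannot be told apart. The genome used was human, so RNA of mouse host cells enters only where its reads align to human genes.

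N-cadherin and cadherin-11 led the classical cadherins. CDH2 had 22.1, 22.1 and 33.0 FPKM in anti-ENG 1, 2 and 3, against 34.8, 15.9 and 18.6 FPKM in IgG control 1, 2 and 3. CDH11, a type II cadherin of mesenchyme and bone, had 8.37, 24.6 and 9.83 FPKM in the anti-ENG tumours, against 26.4, 11.6 and 11.9 FPKM in the IgG tumours. For both genes the groups overlapped, and IgG control 1 was the highest of all 6 tumours. CDH11 was also high in anti-ENG 2, which shares a description code number with anti-ENG 1, the tumour with the lowest CDH11. The log2 fold change was 0.21 for CDH2 (SE 0.29, adjusted p = 0.801 by limma) and -0.26 for CDH11 (SE 0.44, adjusted p = 0.828 by limma). The CDH11 estimate became 0.10 when IgG control 1 was left out and 0.014 when anti-ENG 1 was. Together CDH2 and CDH11 made up 75.4 ± 10.7% of the summed classical cadherin FPKM in the anti-ENG tumours and 73.6 ± 11.1% in the IgG tumours (SD, n = 3 each). That sum was 52.7 ± 4.04 FPKM in the anti-ENG tumours and 52.4 ± 16.1 FPKM in the IgG tumours (SD, n = 3 each). The anti-ENG minus IgG difference was 0.273 FPKM, but 9.51 FPKM without IgG control 1, -5.08 FPKM without IgG control 2 and -3.63 FPKM with each tumour rescaled to the same FPKM sum.

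E-cadherin was almost absent. CDH1 was listed at 0.0337 FPKM in anti-ENG 1 and 0.0209 FPKM in IgG control 2, and at 0 in the other 4 tumours. CDH3 (P-cadherin), also typical of epithelium, averaged 0.509 ± 0.413 FPKM under anti-ENG and 0.492 ± 0.147 FPKM under IgG (SD, n = 3 each). Of 6 epithelial markers, 4 reached a mean of 1 FPKM. The other markers were low, with ESRP1 listed at 0 in every tumour and EPCAM at most 0.330 FPKM in the anti-ENG and 0.275 FPKM in the IgG tumours. The keratin gene KRT18 was expressed, at 38.3 to 55.7 FPKM in the anti-ENG tumours and 40.1 to 54.0 FPKM in the IgG tumours. KRT8 had means of 10.3 and 11.6 FPKM under anti-ENG and IgG, KRT19 of 1.60 and 1.27 FPKM, and CLDN4 of 2.08 and 2.06 FPKM. CDH15 (M-cadherin), known from skeletal muscle, had means of 0.122 and 0.201 FPKM under anti-ENG and IgG, and the muscle markers MYOD1, MYOG, DES and CKM summed to 0.116 to 0.245 FPKM in the anti-ENG and 0.0714 to 0.243 FPKM in the IgG tumours.

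CDH4 (R-cadherin), the close relative of N-cadherin, had 4.69, 2.13 and 2.10 FPKM in the anti-ENG tumours, against 0.935, 1.30 and 3.21 FPKM in the IgG tumours. Its estimate was the largest upward one among the genes tested, a log2 fold change of 0.52 (SE 0.35, adjusted p = 0.609 by limma). The groups overlapped through IgG control 3. The CDH4 estimate was 0.23 without anti-ENG 1, 0.29 without IgG control 1, 0.85 without IgG control 3 and 0.00074 with both replicate 1 tumours left out. CDH24, a type II cadherin, had 7.76, 3.87 and 4.50 FPKM under anti-ENG and 5.49, 6.70 and 5.74 FPKM under IgG. The IgG values of CDH24 lay inside the range of the anti-ENG values.

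Cadherin-9 was the 1 gene tested whose groups did not overlap. CDH9, a type II cadherin known from synapses, had 0.791, 0.971 and 1.01 FPKM in the anti-ENG tumours, against 1.54, 2.94 and 1.19 FPKM in the IgG tumours. All anti-ENG values lay below all IgG values, though anti-ENG 3 and IgG control 3 were close. Limma gave CDH9 a log2 fold change of -0.54 (SE 0.25) with an adjusted p of 0.529. Without IgG control 2 the log2 fold change was -0.30. CDH9 averaged under 1 FPKM in the anti-ENG tumours and passed the low-level filter through the IgG group. Thus 1 of 17 genes tested had groups that did not overlap, or 5.88%, against 17.3% of all genes tested (10.6% higher, 6.75% lower).

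The other neural type II genes varied between single tumours. CDH18 had 3.12, 0.406 and 0.766 FPKM in anti-ENG 1, 2 and 3, and 0.516, 0.944 and 2.41 FPKM in IgG control 1, 2 and 3. Anti-ENG 1 and IgG control 3 were the high tumours, as they were for CDH4 also. CDH18 had a 7.70-fold range between its lowest and highest tumour and CDH4 a 5.02-fold range. CDH12 lay under the limit, with means of 1.21 ± 0.571 FPKM under anti-ENG and 0.745 ± 0.419 FPKM under IgG (SD, n = 3 each). CDH6, CDH7 and CDH10 had means under 0.1 FPKM, and CDH7 was above 0 in IgG control 3 alone, at 0.158 FPKM.

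VE-cadherin was scarcely detected. CDH5 had 0.0196, 0.0233 and 0.151 FPKM in the anti-ENG tumours, against 0.0287, 0.341 and 0.0783 FPKM in the IgG tumours. The groups overlapped, and IgG control 2 had the highest value. Of 8 other endothelial markers, none was at 0 in all tumours, and their summed level was 3.55 to 4.82 FPKM in the anti-ENG tumours and 2.93 to 5.44 FPKM in the IgG tumours. PECAM1 and TEK made up most of that sum, while KDR was at most 0.0535 and 0.0332 FPKM in the anti-ENG and IgG tumours. PCDH12, a protocadherin also known from endothelium, had means of 0.0571 FPKM under anti-ENG and 0.117 FPKM under IgG. Host vessels are mouse, so these values need not measure them.

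Of the cadherins outside the classical types, T-cadherin (CDH13), which has a lipid anchor in place of a cytoplasmic tail, was the highest. It had 4.73, 2.68 and 6.79 FPKM in the anti-ENG tumours and 2.82, 4.05 and 7.16 FPKM in the IgG tumours. The group means were nearly equal, with a log2 fold change of 0.02 (SE 0.35, adjusted p = 0.985 by limma), which was -0.082 with each tumour rescaled to the same FPKM sum. CDH23, the tip link cadherin of hair cells, averaged 0.367 ± 0.117 FPKM under anti-ENG and 0.403 ± 0.0910 FPKM under IgG (SD, n = 3 each).

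The 3 protocadherin clusters differed in level. Summed over members, gamma protocadherins reached 81.7 ± 12.4 FPKM in the anti-ENG tumours and 83.9 ± 7.56 FPKM in the IgG tumours (SD, n = 3 each). The beta sum was 9.07 ± 1.62 FPKM under anti-ENG and 10.0 ± 0.639 FPKM under IgG, and the alpha sum 0.793 ± 0.260 FPKM under anti-ENG and 0.915 ± 0.300 FPKM under IgG (SD, n = 3 each). The order of gamma over beta over alpha held in each of the 6 tumours, and no sum separated the groups. The gamma difference (anti-ENG minus IgG) was -2.14 FPKM, and -9.31 to 2.06 FPKM when 1 tumour was left out. Alpha and gamma genes each share constant exons at their 3′ end, so reads there fit many members and their split among members is uncertain. Beta genes have no such exons.

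**Figure D2:**
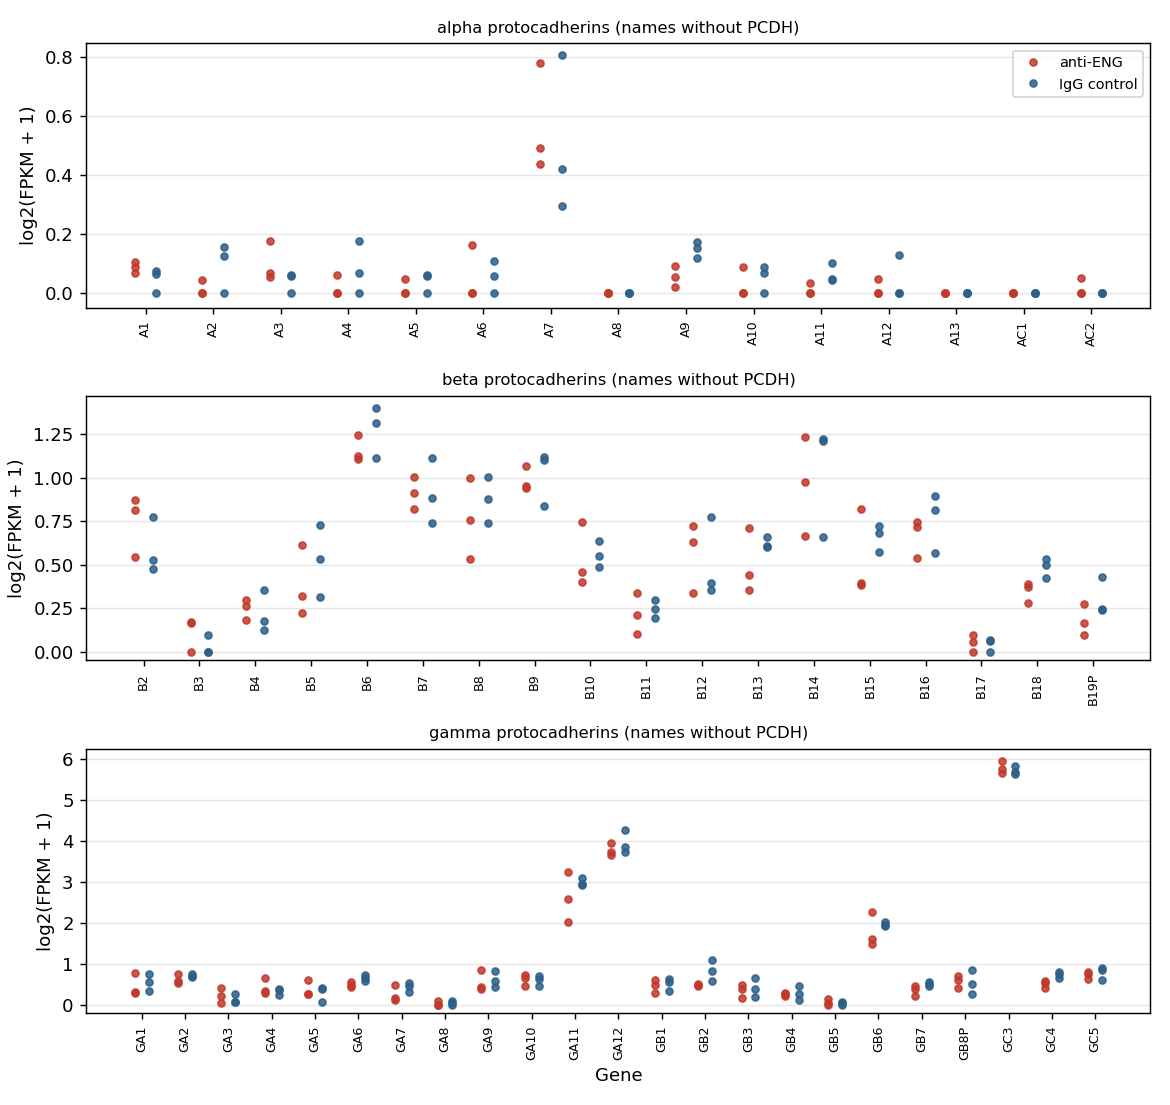
Level of each member of the alpha, beta and gamma clusters as log2(FPKM + 1), with a separate axis per cluster and 1 point per tumour (red, anti-ENG, left; blue, IgG control, right). PCDHA7 is the highest alpha gene at up to 0.749 FPKM, beta values are spread over many members, and PCDHGC3, PCDHGA12, PCDHGA11 and PCDHGB6 stand above the other gamma members.

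Within the gamma cluster the level was concentrated in few genes. PCDHGC3, the C-type member with broad expression outside neurons, had 53.0, 60.6 and 49.4 FPKM in anti-ENG 1, 2 and 3, and 56.0, 50.3 and 48.2 FPKM in IgG control 1, 2 and 3. It was the most even of the well expressed members, with a 1.26-fold range over the 6 tumours and a log2 fold change of 0.07 (SE 0.12, adjusted p = 0.825 by limma). Under quantile normalization this fold change was -0.0086, and with each tumour rescaled to the same FPKM sum it was -0.045. PCDHGC3 made up 66.8 ± 3.71% of the gamma sum in the anti-ENG tumours and 61.4 ± 0.657% in the IgG tumours (SD, n = 3 each). This share was 70.5, 63.1 and 66.8% in anti-ENG 1, 2 and 3, and 60.7, 61.5 and 62.0% in IgG control 1, 2 and 3, without overlap. It was not tested, and the split of reads among gamma genes is uncertain. With PCDHGA12, PCDHGA11 and PCDHGB6 added to PCDHGC3 the share was 92.0 ± 0.915% and 90.6 ± 1.15% in the anti-ENG and IgG tumours. The other 19 gamma genes each had a mean under 1 FPKM, C-type members PCDHGC4 and PCDHGC5 included, with means over all tumours of 0.551 and 0.698 FPKM.

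The expressed variable genes lie toward one end of the cluster in the mouse annotation (GRCm38.p6), which was used for order alone. There PCDHGB6, PCDHGA11, PCDHGA12 and PCDHGC3 have orthologues at places 14, 17, 19 and 20 of 22 gamma genes. Neighbours between them were low, with PCDHGA10 at place 15, PCDHGB7 at place 16 and the pseudogene PCDHGB8P at place 18 at means of 0.532, 0.355 and 0.489 FPKM. Every gamma gene at places 1 to 13 had a mean of 0.598 FPKM or less.

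PCDHGA12 had 11.6, 14.5 and 12.2 FPKM in the anti-ENG tumours, against 18.3, 13.5 and 12.2 FPKM in the IgG tumours. PCDHGA11 had 3.03, 8.46 and 4.95 FPKM in the anti-ENG tumours, against 7.60, 6.59 and 6.74 FPKM in the IgG tumours. PCDHGB6 had 1.82, 3.78 and 2.06 FPKM under anti-ENG and 2.85, 3.05 and 2.81 FPKM under IgG. For PCDHGA11 and PCDHGB6 the IgG tumours were close together, and anti-ENG 1 and anti-ENG 2, on either side of them, were the lowest and the highest of all 6. The log2 fold change of PCDHGA11 was -0.38 (SE 0.28, adjusted p = 0.631 by limma), and leaving out anti-ENG 1 gave -0.085, while leaving out anti-ENG 2 gave -0.70.

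Beta protocadherins were low, with the level spread over many members. Of 18 members above 0, 16 had a mean of at least 0.1 FPKM, and the 3 that reached 1 FPKM were PCDHB6, PCDHB14 and PCDHB9. PCDHB6 had 1.15, 1.18 and 1.37 FPKM in the anti-ENG tumours and 1.48, 1.16 and 1.64 FPKM in the IgG tumours. It made up 13.9 ± 2.63% of the beta sum under anti-ENG and 14.4 ± 3.10% under IgG (SD, n = 3 each), so no beta gene dominated as PCDHGC3 did. PCDHB14 had 0.582, 1.35 and 0.968 FPKM under anti-ENG and 1.32, 1.34 and 0.581 FPKM under IgG, and PCDHB9 averaged 0.984 ± 0.0972 and 1.03 ± 0.217 FPKM under anti-ENG and IgG (SD, n = 3 each). Beta genes are close copies of each other, so reads may be shared among them.

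Of the alpha genes none reached 1 FPKM, and 1 of 15 had a mean of at least 0.1 FPKM. That gene was PCDHA7, with 0.718, 0.406 and 0.353 FPKM in the anti-ENG tumours and 0.749, 0.339 and 0.227 FPKM in the IgG tumours. The remaining alpha genes had means of at most 0.0732 FPKM.

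The beta and gamma genes also differed in which tumour was highest or lowest. Among the 30 of them with a mean from 0.1 to under 1 FPKM, anti-ENG 2 was the highest tumour for 11, against 15.4% of all genes in that range. Anti-ENG 1 was the lowest for 11 and anti-ENG 3 for 9, against 28.0% and 18.4% of all genes in that range. IgG control 1, 2 and 3 were the highest for 5, 9 and 4, against 17.5%, 20.5% and 17.4%. The genes share libraries, and gamma genes share exons, so these counts are not independent of each other.

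Of 11 genes that flank or lie between the protocadherin clusters, 10 were tested, 5 with higher and 5 with lower estimates in the anti-ENG tumours and a median log2 fold change of -0.01. The neighbours of smallest unadjusted p were FCHSD1, with a log2 fold change of -0.34 (SE 0.15, adjusted p = 0.529 by limma), and HARS, the histidyl-tRNA synthetase gene, with 0.20 (SE 0.12, adjusted p = 0.572 by limma).

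Among the non-clustered protocadherins, PCDH18 alone reached 1 FPKM. It had 0.261, 0.653 and 0.772 FPKM in anti-ENG 1, 2 and 3, against 3.01, 4.41 and 0.657 FPKM in IgG control 1, 2 and 3. IgG control 1 and 2 were high, while IgG control 3 lay within the anti-ENG range. Of the genes tested PCDH18 had the largest estimate, a log2 fold change of -1.09 (SE 0.42, unadjusted p = 0.0343 and adjusted p = 0.529 by limma). It was the 1 of 17 genes with an unadjusted p under 0.05, against 9.17% of all genes tested (3.61% lower, 5.56% higher), and it passed the low-level filter through the IgG group. Its unadjusted p by limma was 0.0514 to 0.117 in 5 of the 6 fits that left out 1 tumour, and 0.000615 without IgG control 3. It was 0.0686 after quantile normalization and 0.0848 with array weights, and with a pseudocount of 0.1 the log2 fold change was -1.83. Fibroblast markers had lower estimates in the anti-ENG tumours for 6 of 6, against 6148 of 12586 genes tested. By limma 2 of the 6 were lower at an unadjusted p under 0.05, against 3.61% of all genes tested, and 0 passed adjustment. Groups overlapped for 5 and did not for 1 (16.7%), against 17.3% of all genes tested without overlap (6.75% lower). The summed level of the 6 markers was 219, 572 and 586 FPKM in anti-ENG 1, 2 and 3, and 1038, 752 and 564 FPKM in IgG control 1, 2 and 3, and none was at 0. DCN had 4.62, 7.87 and 14.9 FPKM under anti-ENG and 12.9, 48.5 and 22.3 FPKM under IgG, with overlap. PDGFRB, the 1 marker of this list without overlap, had 22.2, 29.2 and 28.6 FPKM under anti-ENG and 74.2, 52.8 and 35.2 FPKM under IgG. Its log2 fold change was -0.94 (SE 0.26, unadjusted p = 0.00747 and adjusted p = 0.529 by limma). Host fibroblasts are mouse, so these marker values need not measure them. The part of fibroblasts in the PCDH18 values was not tested.

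Other non-clustered protocadherins were high in single tumours. PCDH15, a partner of CDH23 in hair cell tip links, had 1.62 FPKM in anti-ENG 3, 0.319 and 0.230 FPKM in anti-ENG 1 and 2, and 0.329 to 0.537 FPKM in the IgG tumours. PCDH7 had 0.0702, 0.947 and 0.437 FPKM in the anti-ENG tumours and 0.318, 0.108 and 1.16 FPKM in the IgG tumours, a 16.5-fold range with no separation by treatment. PCDH11X and its near-identical copy PCDH11Y summed to 0.857, 0.877 and 0.768 FPKM under anti-ENG and 1.03, 1.06 and 1.00 FPKM under IgG, without overlap. The split of reads between the copies is uncertain. PCDH1, PCDH8, PCDH10, PCDH17 and PCDH19 had means under 0.1 FPKM.

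FAT1 dominated its family. FAT1, a giant cadherin that restrains growth and organises actin at the cell edge, had 10.0, 11.8 and 14.7 FPKM in the anti-ENG tumours, against 13.0, 14.4 and 15.5 FPKM in the IgG tumours. The groups overlapped, with a log2 fold change of -0.23 (SE 0.15, adjusted p = 0.603 by limma), and FAT1 made up 93.5 ± 2.69% and 90.7 ± 1.65% of the FAT sum under anti-ENG and IgG (SD, n = 3 each). FAT2 and FAT3 had means of 0.106 and 0.0523 FPKM over all tumours.

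FAT4 and the Dachsous gene DCHS2, singled out after their values were seen, did not overlap between the groups, although both lay under the 1 FPKM limit. FAT4, the receptor for Dachsous ligands, had 0.785, 0.801 and 0.431 FPKM in anti-ENG 1, 2 and 3, against 1.33, 1.38 and 1.09 FPKM in IgG control 1, 2 and 3. DCHS2 had 0.0546, 0.0757 and 0.116 FPKM in the anti-ENG tumours, against 0.173, 0.259 and 0.302 FPKM in the IgG tumours. All anti-ENG values of both genes lay below all IgG values. In a fit without a filter on low values, the log2 fold change was -0.44 for FAT4 (SE 0.13, unadjusted p = 0.0127) and -0.20 for DCHS2 (SE 0.05, unadjusted p = 0.0093), each with a limma adjusted p of 0.633. With a pseudocount of 0.1 the values were -0.86 for FAT4 and -0.92 for DCHS2. DCHS1, the Dachsous gene known to pair with FAT4, had 0.264, 0.206 and 0.164 FPKM under anti-ENG and 0.253, 0.299 and 0.261 FPKM under IgG, with overlap.

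**Figure D3:**
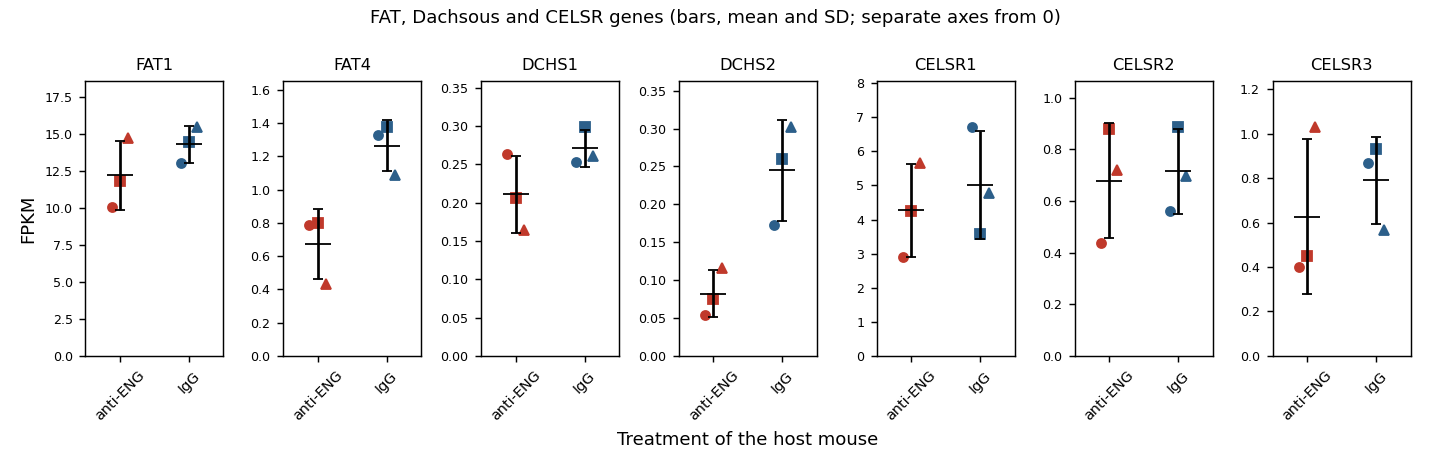
FPKM of the FAT1, FAT4, DCHS1, DCHS2, CELSR1, CELSR2 and CELSR3 genes in the anti-ENG (red, left) and IgG control (blue, right) tumours, each on its own axis from 0, with circle, square and triangle for tumours 1, 2 and 3 and black bars for the mean ± SD (n = 3 each). In FAT4 and DCHS2 the groups do not overlap, with highest anti-ENG values of 0.801 and 0.116 FPKM and lowest IgG values of 1.09 and 0.173 FPKM.

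CELSR1 was the highest of the planar polarity cadherins. It had 2.91, 4.24 and 5.65 FPKM in the anti-ENG tumours and 6.72, 3.57 and 4.78 FPKM in the IgG tumours, with overlap. CELSR2 averaged 0.678 ± 0.222 FPKM under anti-ENG and 0.714 ± 0.164 FPKM under IgG, and CELSR3 averaged 0.627 ± 0.351 FPKM under anti-ENG and 0.790 ± 0.195 FPKM under IgG (SD, n = 3 each). Of 10 planar polarity partners 9 were tested, 5 with higher and 4 with lower estimates, and 1 of the 9 had an unadjusted p under 0.05, close to the 9.17% of all genes tested. That was DVL3, a Dishevelled gene, with 28.1, 31.4 and 34.3 FPKM under anti-ENG and 41.4, 39.5 and 39.2 FPKM under IgG, a log2 fold change of -0.35 (SE 0.11, adjusted p = 0.529 by limma). PRICKLE2 had a log2 fold change of -0.23 (SE 0.13, adjusted p = 0.552 by limma). Groups did not overlap for 3 of the 9 (33.3%), against 17.3% of all genes tested (10.6% higher, 6.75% lower). The 3 were DVL1, higher, and DVL3 and PRICKLE2, lower.

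Across all families no gene passed the test. The groups were compared on log2(FPKM + 1) with limma, and p-values were adjusted by Benjamini-Hochberg over the 12586 genes tested. Of the 17 cadherin genes tested 0 passed an adjusted p under 0.05, against 0% of all genes tested, and 1 had an unadjusted p under 0.05. Estimates were higher in the anti-ENG tumours for 5 and lower for 12, with a median log2 fold change of -0.17, where all genes tested had a median of 0.0065. With each tumour rescaled to the same FPKM sum these medians were -0.26 and -0.10, and without anti-ENG 1 they were -0.03 and 0.0094. Without anti-ENG 3 the median of the 17 was -0.09. The number of genes with an unadjusted p under 0.05 was 0 without IgG control 2, 3 without IgG control 3 and 2 without anti-ENG 2, where 5.26%, 6.51% and 12.4% of all genes tested had one.

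**Figure D4:**
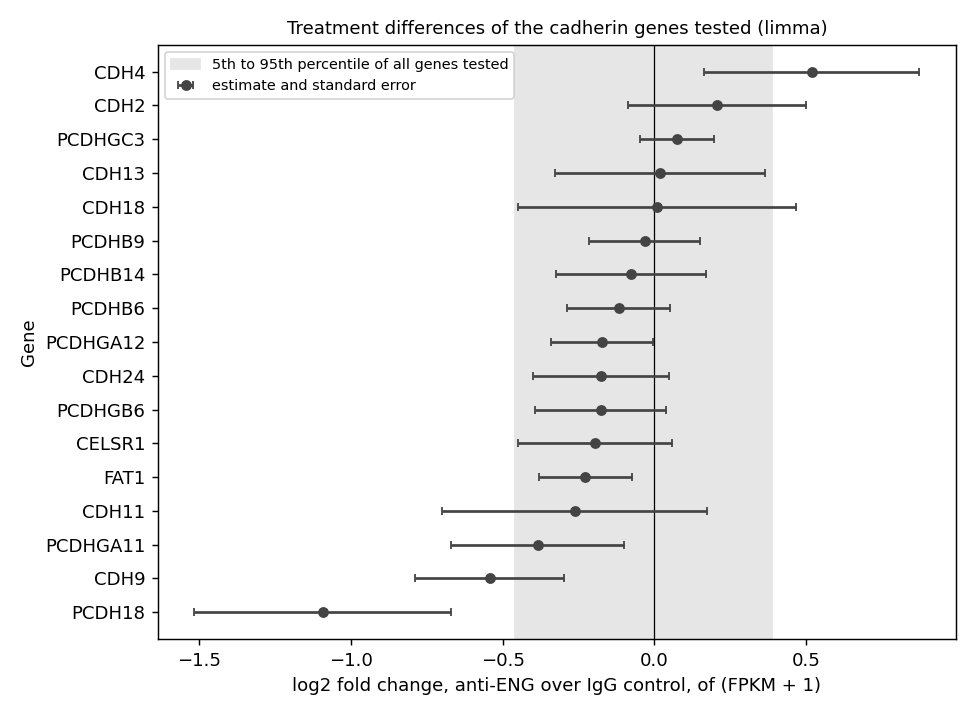
Log2 fold change (anti-ENG over IgG control, on FPKM + 1) of the 17 genes tested, with bars for the standard error and grey shading from the 5th to the 95th percentile of all genes tested (-0.46 to 0.39). CDH4 (0.52) lies above the shaded range, and CDH9 (-0.54) and PCDH18 (-1.09) lie below it.

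Most genes below the 1 FPKM limit but above 0.1 FPKM had the lower mean in the anti-ENG tumours. Of the 47 genes with a mean from 0.1 to under 1 FPKM, 34 had the lower group mean under anti-ENG, or 72.3%, against 59.0% of all genes in that range. In 9 of the 47 the groups did not overlap (19.1%), 8 lower and 1 higher, against 10.2% of all genes in that range (7.56% lower, 2.69% higher). Of these, DCHS2 (mean 0.0822 FPKM under anti-ENG) and PCDH9 (mean 0.0582 FPKM under IgG) passed the 0.1 FPKM bound only through the group where they were high. Gamma genes share exons and beta genes may share reads, so these counts are not independent of each other. Besides FAT4, DCHS2 and PCDH11Y, the lower genes were PCDHB18, a pseudogene of the beta cluster, and the gamma genes PCDHGB2, PCDHGC4, PCDHGA6 and PCDHGB7. PCDHGB2 had 0.366, 0.403 and 0.425 FPKM in the anti-ENG tumours, against 1.12, 0.784 and 0.487 FPKM in the IgG tumours. PCDHGC4 had 0.509, 0.442 and 0.341 FPKM under anti-ENG and 0.570, 0.700 and 0.744 FPKM under IgG. The 1 higher gene was PCDH9, with 0.251, 0.0786 and 0.338 FPKM under anti-ENG and 0.0386, 0.0656 and 0.0704 FPKM under IgG. Over all 78 genes under 1 FPKM the groups did not overlap for 11 (14.1%), 10 lower and 1 higher, against 7.66% of all such genes (5.59% lower, 2.07% higher). With the genes tested this made 12 of 95 (12.6%), 11 lower and 1 higher, against 14.1% of all genes above 0 (6.37% lower, 7.74% higher). In the limma fit without a filter 0 of 95 passed an adjusted p under 0.05, and 7 had an unadjusted p under 0.05 (6 lower, 1 higher), against 7.78% of all genes above 0 (3.4% lower).

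Spread between tumours of one group was large for these genes. The median within-group SD on the log2(FPKM + 1) scale was 0.330 over the 17 genes tested, against 0.188 over all genes tested. CDH18 (0.717), CDH11 (0.713) and PCDH18 (0.654) varied most, and PCDHB6 (0.117), PCDHB9 (0.123) and PCDHGC3 (0.130) least. The tumours anti-ENG 1 and anti-ENG 2, which share a code number, differed by a median of 0.42 on the log2 scale over the 17 genes, against 0.25 over all genes tested. IgG control 2 and 3, which also share one, differed by 0.21, against 0.14 over all genes tested.

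The proteins that cadherins work with were expressed without a called difference. Beta-catenin (CTNNB1) had 80.3, 89.1 and 78.7 FPKM in the anti-ENG tumours and 81.1, 95.3 and 78.8 FPKM in the IgG tumours. P120-catenin (CTNND1), which keeps classical cadherins at the surface, had 31.0, 32.5 and 31.8 FPKM under anti-ENG and 34.0, 33.9 and 33.4 FPKM under IgG. Its groups did not overlap, but the difference was small, with a log2 fold change of -0.09 (SE 0.09, adjusted p = 0.743 by limma). Of 11 catenins and adaptors 7 were tested, 3 with higher and 4 with lower estimates. Of these 0 had an unadjusted p under 0.05 by limma, against 9.17% of all genes tested. A list this short can hold 0 at that share. Groups did not overlap for 1 (14.3%), against 17.3% of all genes tested. Plakoglobin (JUP) had 2.62, 6.85 and 13.0 FPKM under anti-ENG and 13.4, 11.8 and 10.1 FPKM under IgG, a log2 fold change of -0.79 (SE 0.43, adjusted p = 0.552 by limma), with anti-ENG 1 the lowest and anti-ENG 3 within the IgG range.

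Genes of ADAM10 and gamma-secretase, proteins that cut cadherins at the membrane, were expressed in all tumours. All 7 genes of this list were tested, 3 with higher and 4 with lower estimates. Of these 0 had an unadjusted p under 0.05 by limma, against 9.17% of all genes tested. Groups did not overlap for 1 (14.3%), against 17.3% of all genes tested. The gamma-secretase subunit PSENEN had a log2 fold change of 0.19 (SE 0.11, adjusted p = 0.568 by limma), and APH1B had one of -0.25 (SE 0.19, adjusted p = 0.637 by limma).

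Of 11 genes known to act in protocadherin promoter choice, through CTCF, cohesin or silencing, all were tested. Estimates were higher for 8 and lower for 3. Of the 11, 0 had an unadjusted p under 0.05 by limma, against 9.17% of all genes tested. Groups did not overlap for 2 (18.2%), against 17.3% of all genes tested. The cohesin loader gene NIPBL had a log2 fold change of -0.20 (SE 0.10, adjusted p = 0.533 by limma), and WAPAL, which releases cohesin, had 0.24 (SE 0.13, adjusted p = 0.547 by limma). Of 8 effectors that bind protocadherin tails or act beyond them, 7 were tested, 2 with higher and 5 with lower estimates. Among these 0 had an unadjusted p under 0.05 by limma, against 9.17% of all genes tested, and 0 had groups without overlap, against 17.3%. The effector genes of smallest p were CYFIP1, with a log2 fold change of -0.12 (SE 0.12, adjusted p = 0.701 by limma), and PTK2B, with -0.19 (SE 0.29, adjusted p = 0.816 by limma).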

How the data were processed

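The values are FPKM as the authors deposited them, with 23284 symbols in rows and the 6 tumours in columns. Per the submitters' processing notes, reads went through Cufflinks 2.2.1 and Cuffnorm after TopHat2 2.0.10, Bowtie 1.0.0 and SAMtools 0.1.1.9, with GRCh37 (hg19) as the human genome build. Cuffnorm's scaling, strand use and the treatment of mouse reads are not given in the sources used here, and the labels' protocols name more than 1 library kit and more than 1 instrument without tying any to a tumour.

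FPKM are not counts, and total depth is unknown. Single-fragment values in low genes gave depths relative to IgG control 1 of 1.46, 1.23 and 1.14 for anti-ENG 1, 2 and 3 and of 1.18 and 1.10 for IgG control 2 and 3. The deposited values summed to 410786 to 475146 per tumour.

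Genes averaging 1 FPKM or more over the tumours entered a single limma fit (version 3.58.1, R 4.3.3) of log2(FPKM + 1), with trended variance, treatment as the sole term and two-sided p-values. On this scale the fold change of a low gene is understated. In each group a pair of tumours shares a code number and differs in its letter, L or R. Whether both came from 1 mouse is not stated, so the 3 tumours of a group may come from 2 mice. P-values then measure the spread between tumours that may not be independent, and part of that spread may be technical. SDs given with n = 3 each count tumours and not mice.

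The members and lists were chosen with earlier results of these data known. Genes named were the 3 highest tested per family, the 5 of smallest p in each direction, CDH1, CDH2, CDH5, ENG, and the 2 of smallest p per partner list with CTNNB1 and CTNND1. PCDHGB6 and genes under 1 FPKM were named after their values were seen. Marker lists of melanocytes, leukocytes and neurons were summed too. Alternatives covered the pseudocount, filter, scaling, variance model, weights, blocks and leaving out tumours. A planned display of promoter and protein sequences was not made, since the sequence tables used here are of mouse.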

Additional observations from a re-analysis of the deposited data

How the results depend on the processing

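No cadherin or protocadherin gene passed an adjusted p under 0.05 under any alternative run, and the cause of the differences below was not tested. The number of tested genes with an unadjusted p under 0.05, 1 as reported, was 3 at a minimum mean of 0.1 FPKM, 0 at 5 FPKM and 7 without a filter, where 64, 7 and 95 genes were tested and 8.42%, 10.2% and 7.78% of all genes had one. It was 0 with quantile normalization (7.66% of all genes) and 2 with each tumour rescaled to the same FPKM sum (9.98% of all genes). It was 2 without the variance trend (8.83%), 0 with array weights (8.71%) and 2 with both replicate 1 tumours left out (5.84%). When 1 tumour was left out it was 0 to 3, where 5.26% to 12.4% of all genes had one. The median log2 fold change was -0.070 at a minimum of 0.1 FPKM, -0.034 without a filter, -0.096 with quantile normalization, -0.26 at the same FPKM sum, -0.075 with array weights, -0.039 with both replicate 1 tumours left out, and -0.21 to -0.030 with 1 tumour left out. Groups did not overlap for 10 genes at a minimum of 0.1 FPKM, 0 at 5 FPKM and 12 without a filter, against 15.9%, 19.0% and 14.1% of all genes. They did not overlap for 5 with both replicate 1 tumours left out, 5 with tumours of 1 code number averaged, and 2 to 5 with 1 tumour left out, against 38.0%, 41.0% and 23.2% to 33.2% of all genes, since fewer samples overlap less. Expressed genes numbered 64 at 0.1 FPKM and 7 at 5 FPKM.

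Signs turned for 9 of the 17 genes tested. CDH18 was -0.065 and -0.013 with pseudocounts of 0.1 and 0.5, -0.0062 with upper quartile rescaling, -0.066 at the same FPKM sum, -0.29 with array weights and -0.71 with both replicate 1 tumours left out. With quantile normalization PCDHB14 was 0.055, PCDHB9 0.066 and PCDHGC3 -0.0086, and with cyclic loess they were 0.010, 0.053 and -0.026. At the same FPKM sum CDH13 was -0.082 and PCDHGC3 -0.045. With array weights CDH11 was 0.025, CDH13 -0.072, PCDHB14 0.0086 and CELSR1 0.023. With both replicate 1 tumours left out CDH11 was 0.38, CDH13 -0.26, PCDHB14 0.16, PCDHGA12 0.050 and CELSR1 0.20. PCDHB9 was 0.0056 with code numbers averaged. Leaving out 1 tumour gave -0.0089 to 0.53 for CDH2, -0.71 to 0.10 for CDH11, -0.23 to 0.32 for CDH13, -0.26 to 0.072 for PCDHB14, -0.12 to 0.019 for PCDHB9, -0.0059 to 0.14 for PCDHGC3, -0.38 to 0.0037 for CELSR1 and -0.45 to 0.34 for CDH18. The other 8 genes tested, PCDH18 and CDH9 among them, kept their sign in the settings run, which numbered up to 20. The 9 genes from 0.1 to under 1 FPKM without overlap, FAT4 and DCHS2 among them, kept theirs in 10 settings (a pseudocount, the block, a pair of rescalings and single tumours left out), and the other settings were not run for them.

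Correlations of deviations between tumours of the same replicate number were -0.33, 0.19 and 0.037 for numbers 1, 2 and 3. With 3 tumours per group these values cannot decide whether replicate numbers pair the tumours. With a replicate block 1 gene had an unadjusted p under 0.05, 0 passed the adjusted threshold and the smallest adjusted p of these genes was 0.641, while 842 of all genes had an unadjusted p under 0.05, against 1154 without the block. Total depth is unknown, so values near 0 carry no interval.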

Other observations

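Marker sums of other cell types are given as values with no test. The melanocyte markers summed to 4.83, 3.45 and 4.07 FPKM in anti-ENG 1, 2 and 3, and to 2.48, 3.39 and 3.35 FPKM in IgG control 1, 2 and 3, without overlap. Anti-ENG 2 and IgG control 2 were nearly equal in this sum. MITF, the highest of them, had 3.98, 2.09 and 3.07 FPKM in the anti-ENG tumours and 1.38, 2.34 and 1.83 FPKM in the IgG tumours, with overlap. PMEL also had the higher mean under anti-ENG (0.162 against 0.112 FPKM). MLANA (0.715 against 0.876 FPKM), TYRP1 (0.190 against 0.207 FPKM), TYR and DCT had the lower mean under anti-ENG, so the markers did not move together. The leukocyte markers summed to 2.14 to 4.13 FPKM in the anti-ENG tumours and 3.39 to 3.75 FPKM in the IgG tumours, with CD3E listed at 0 in all 6. The neuron markers summed to 19.8 to 31.6 FPKM in the anti-ENG tumours and 16.7 to 32.0 FPKM in the IgG tumours, with TUBB3 the highest of them.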
